A study of Mus musculus with 6 samples.

Results

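The cytosolic ribosomal protein genes of the mouse uterus were examined in 12-month-old CD-1 mice that had been given corn oil (CO) or diethylstilbestrol (DES), a synthetic estrogen, as newborns. Members were taken by symbol, as Rpl or Rps followed by digits and at most 1 of the letters a, l and x, with Rplp0, Rplp1, Rplp2 and Rpsa added, while pseudogenes and the Rps6k kinases were left out. The rule found 80 genes, 31 of the small and 49 of the large ribosomal subunit, among 30828 genes in the spatial tables, and 78 of them among the 24077 genes in the single-cell table. Rpl10l and Rpl39l were in the spatial tables alone, and Rps4l was not analysed here. The members lie on 19 chromosomes of GRCm38, and all 80 are annotated there as protein-coding genes.

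Neonatal mice received DES at 1 mg/kg/day, or corn oil alone, by subcutaneous injection for the first days of life. One single-cell library pooled the uteri of 2 CO mice and another pooled those of 4 DES mice, and spatial RNA was captured in 4 frozen sections (CO A, CO B, DES A and DES B), each from 1 mouse and all on 1 slide. DES mice were in persistent estrus, and CO mice in estrus were chosen to match them. The study noted a tissue fold in CO B and that clusters were hard to identify in DES B. Before blocks were chosen, a pathologist examined the DES tissue for uterine adenocarcinoma, and the study describes cancer regions in its DES section. Exposure and cancer cannot be told apart in the section comparisons. The CO library gave 32387 cells (median 6779 unique molecular identifiers, UMIs) and the DES library 16312 cells (median 10153.5 UMIs), and 12253 and 9701 of these carry a cell type in the deposited metadata. The 2 libraries had 180 cell barcodes in common, 32 of them among annotated cells. In every cell type that was used and had a marker list, all markers on its own list had UMIs. The DES library held 1 stromal and 5 endothelial cells, too few to use.

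A ribosome is built from ribosomal RNA and a single copy of most ribosomal proteins, so the genes of both subunits are usually expressed together and at high levels. The small subunit reads the messenger RNA, the large subunit joins amino acids, and a stalk of acidic proteins (Rplp0, Rplp1 and Rplp2) on the large subunit recruits elongation factors. Messenger RNAs of ribosomal proteins commonly begin with a C and a run of pyrimidines, the 5′ terminal oligopyrimidine or TOP motif, through which growth signals set how strongly they are translated.

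The first 25 bases of the annotated transcript (GENCODE M21, GRCm38) are shown for the 5 members with the largest falls in epithelium-rich spots of DES sections, then for 4 named members whose CPM, the UMIs of a gene scaled to the same total in every sample, was higher there in both DES sections than in both CO sections (chosen from 12 such members, of which 6 have the run described here), and for Rps27l, the paralog of Rps27. Capitals mark a C followed by at least 4 pyrimidines that starts within the first 5 bases, read on the transcribed strand only.
Rpl22: gCCCCCCTCCCTTTCTgcctcctct
Rps7: ccacctacttccgctgtccccacct
Rpl21: gtcagcacgctacggaagtcgcgtc
Rpl37: CTCTTCCggtctctttggcctcgcc
Rpl4: CTTTTCCTgtgggagcagccgggta
Rplp1: gatCTTTTCCTCagctgccgccaag
Rpsa: gaggCTTTTTCCggagcggaagttc
Rps2: CTTCTTCTTCTTCgggagaacacgt
Rps27: gCTCCTTTCCggcggtgacgacctc
Rps27l: gCCTCTatcccggaagttgctgagg
They lie at chr4:152325853-152325877 (plus strand, Rpl22), chr12:28635929-28635953 (minus, Rps7), chr5:146832890-146832914 (plus, Rpl21), chr15:5116645-5116669 (plus, Rpl37), chr9:64173375-64173399 (plus, Rpl4), chr9:61914518-61914542 (minus, Rplp1), chr9:120127689-120127713 (plus, Rpsa), chr17:24720110-24720134 (plus, Rps2), chr3:90213627-90213651 (minus, Rps27) and chr9:66946086-66946110 (plus, Rps27l), each in the first exon of the transcript used. Such a run was found at 21 of 80 members (26.25%) and at 1997 of 21877 coding genes (9.13%). For each gene the coding transcript with the lowest number was used, which need not be the main one in the uterus. Its annotated start can also lie some bases from the start used there. The absence of a run thus says only that these letters are not in this window. Both sets shown hold members with a run.

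The share of UMIs that came from members was taken as the main measure, and each interval is an exact Clopper-Pearson 95% interval that covers counting error only. Over whole libraries it was 17.2% (17.2 to 17.2) in CO and 21.8% (21.8 to 21.8) in DES. These totals include barcodes without a cell type, and the mix of cell types differed between the libraries. Among annotated cells the share was 19.6% in CO and 22.8% in DES. Counting error was at most 0.135 percentage points in any cell type or cluster with at least 50 cells. Because each condition is 1 library of pooled mice, no difference between CO and DES cells was tested, and the spread between mice is unknown.

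Among CO cell types of at least 50 cells the share was highest in Ctla2a cells, the cluster that the authors named for that gene, and lowest in mesothelial cells, which line the outer surface of the organ. It was 27.1% in 465 Ctla2a cells, 21.3% in 2583 epithelial cells, 21.3% in 75 pericytes, 21.2% in 1326 stromal cells, 20.4% in 423 lymphocytes, 19.9% in 85 myocytes, 19.0% in 341 endothelial cells, 17.8% in 67 myeloid cells and 17.5% in 6866 mesothelial cells. Epithelial cells, pericytes and stromal cells were close together in the middle of this order.
In DES cells the share was 24.6% in 5255 epithelial cells, 23.5% in 239 lymphocytes, 18.2% in 3837 mesothelial cells, 15.1% in 228 myeloid cells and 14.98% in 136 myeloid cells rich in Lyz2. Myeloid cells were therefore at the bottom of the order in DES, below mesothelial cells, whereas in CO they were level with them.

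**Figure D1:**
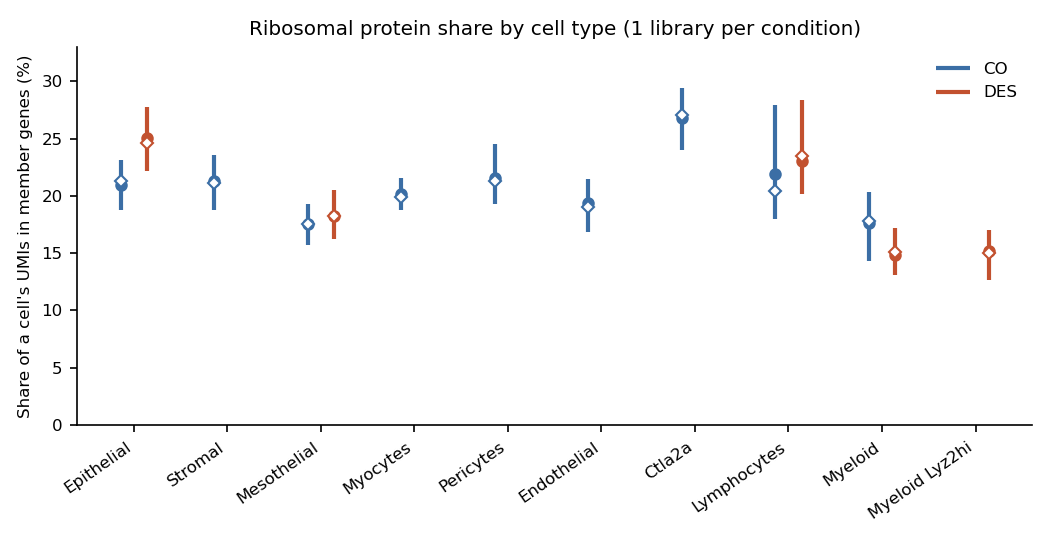
Share of UMIs in ribosomal protein genes (y axis, percent) by cell type (x axis) in the CO and DES libraries; filled circles are medians over cells, bars run from the first to the third quartile of cells, and open diamonds are shares of the summed UMIs. The epithelial median was 20.95% in CO and 25.05% in DES, and Ctla2a cells had the highest median at 26.8%.

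Epithelial cells of the DES library devoted 3.26 percentage points more of their UMIs to members than those of the CO library (counting interval 3.24 to 3.27). Here and in the ratios below, the DES epithelial cells include the basal cells. The 4608 cells of the DES clusters, nearly all of them not basal, were at 24.4%, against 21.3% in CO epithelial cells. The quartiles over cells were 18.8% and 23.1% in CO and 22.1% and 27.7% in DES, so that the distributions overlapped, and 82.6% of DES epithelial cells (4339 of 5255) were above the CO median. The median depth of these cells was similar, at 23458 UMIs in CO and 21900 in DES, and mitochondrially encoded genes took 10.2% and 11.9% of their UMIs. Both subunits had larger shares in DES, with 9.03% in CO and 10.97% in DES for the small subunit and 12.3% and 13.6% for the large subunit. The difference was smaller in mesothelial cells, at 0.714 points (0.701 to 0.726), was 3.08 points (2.99 to 3.17) in lymphocytes, and had the opposite sign in myeloid cells, at -2.73 points (-2.84 to -2.63). As a mean over cells rather than over UMIs, the lymphocyte difference was 1.82 points. In lymphocytes the median DES over CO ratio of CPM was 1.15 over members and 1.17 over all genes, and in myeloid cells 0.848 and 0.808, so that in both cell types the members' median was no farther from 1 than that of all genes. The share of members with a ratio above 1 was 93.5% in lymphocytes, against 71.3% of all genes, and 11.7% in myeloid cells, against 31.1%.

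Of the 77 members with at least 50 CPM in either library, 63 had a higher CPM in DES than in CO epithelial cells, and the median ratio was 1.13. Over all 3105 genes at that level the median ratio was 0.981 and 47.7% of genes had a ratio above 1. Few members differed by much, since 2 were at least 1.5-fold higher and 0 at least 1.5-fold lower in DES, whereas 12.1% and 20.1% of all genes passed these folds. In mesothelial cells the median ratio was 1.04, against 0.969 over all genes, and 0 members passed the fold in either direction, against 5.12% of all genes higher and 6.02% lower.

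Among single members in epithelial cells, Rps27, a zinc-finger protein of the small subunit, had the largest ratio. It was at 2430 CPM (exact Poisson 95% interval 2420 to 2441) in CO and 3866 CPM (3857 to 3876) in DES, a ratio of 1.59. Rps24 was at 4579 CPM in CO and 7040 CPM in DES, a ratio of 1.54, and was the other member past 1.5-fold.
Taken as a share of all member UMIs, which leaves the rest of the transcriptome out, the 5 largest DES over CO ratios among members of at least 50 CPM in either library were those of Rps27 (1.38), Rps24 (1.33), Rps26 (1.30), Rpl35a (1.24) and Rps4x (1.23), an X-linked member. The 5 smallest among the same members were those of Rpl13a (0.656), Rps27l (0.715), Rpl29 (0.774), Rps2 (0.790) and Rplp0 (0.803). Rpl13a went from 288 CPM in CO to 218 CPM in DES and Rps27l from 653 to 538 CPM. Rpl13a and Rpl29 were also among the least abundant of the widely expressed members, and ribosomal protein genes have many near-identical processed pseudogenes with which reads of one gene can be split, so the level of any one member is uncertain.

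Of the stalk and laminin-receptor genes, Rplp0 and Rpsa were near the lower end of this range and Rplp1 and Rplp2 were not. Rplp0, the stalk base, was at 4036 CPM in CO and 3737 CPM in DES epithelial cells, Rplp1 at 4147 and 4228 CPM, and Rplp2 at 2540 and 2791 CPM. Rpsa, a small subunit protein also known as the laminin receptor precursor, was at 4249 CPM in CO and 3999 CPM in DES. As shares of member UMIs their DES over CO ratios were 0.803 for Rplp0, 0.885 for Rplp1, 0.953 for Rplp2 and 0.817 for Rpsa. In myeloid cells Rpsa was at 3729 CPM in CO and 1823 CPM in DES and Rplp0 at 2730 and 1707 CPM, and with Rps27l they were the 3 members at least 1.5-fold lower in DES there, beside 33% of all genes.

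Some members have a paralog, and the distance between the levels within a pair differed from pair to pair. Rps27l, whose gene is a known target of p53, made up 0.306% of member UMIs in CO and 0.219% in DES epithelial cells, while its paralog Rps27 made up 1.139% and 1.572%, so that the share of one was higher and that of the other lower in DES. Rpl3l, the paralog of Rpl3 that is known from striated muscle, had 8 UMIs in CO and 5 in DES epithelial cells, against 162431 and 380638 UMIs of Rpl3. In the sections Rpl3l had 2 and 4 UMIs (CO A and B) and 4 and 2 UMIs (DES A and B). Rpl10l, a germline paralog of X-linked Rpl10, had 1, 2, 1 and 2 UMIs in the same order, and Rpl39l, a paralog of Rpl39, had 0, 2, 0 and 1. Rpl10 and Rpl39 themselves were at 2654 and 3690 CPM in CO epithelial cells and at 2604 and 5177 CPM in DES epithelial cells. Rpl22 and its paralog Rpl22l1, whose symbol the member rule did not take, were closer, at 1597 and 1328 CPM in CO epithelial cells and 1846 and 1999 CPM in DES epithelial cells, so that their order differed between the libraries. Rpl36a and its paralog Rpl36al, also outside the rule, were at 1176 and 307 CPM in CO and 1617 and 318 CPM in DES epithelial cells.

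Several members were among the 5 most abundant in both libraries, while Rplp1 was among them in CO alone and Rps24 in DES alone. As shares of member UMIs, the 5 most abundant included Rpl41 (3.01%), Rplp1 (2.56%), Rpl13 (2.36%) and Rpl23 (2.28%) in the CO library, and Rps24 (2.72%), Rpl41 (2.62%), Rpl23 (2.48%) and Rpl13 (2.33%) in the DES library. Over the 4 sections they included Rpl13 (3.18%), Rplp1 (2.88%), Rpl41 (2.67%) and Rps20 (2.42%). These are shares of UMIs from 3′ libraries, in which each molecule is counted once whatever its length, and they were not compared further between genes.

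Some members took different shares of the member UMIs in different cell types. Over the 14 cell types of at least 50 cells in a library, the largest ratios of the highest share to the median were those of Rpl3l, which rested on a few UMIs, Rps29 (2.12), Rpl7 (1.61), Rpl30 (1.55) and Rps25 (1.44). Rpl3l had its highest share in DES lymphocytes, at 12.1 CPM, against 3.11 CPM in CO lymphocytes. It was at 0.0284 CPM in DES and 0.102 CPM in CO epithelial cells. Rps29, a small zinc-binding protein of the small subunit, made up 3.34% of member UMIs in DES myeloid cells, 2.63% in Lyz2-rich myeloid cells, 2.46% in CO myeloid cells, 2.22% and 2.04% in DES and CO lymphocytes, and 1.33% in CO epithelial cells. Immune cells of both libraries were thus above the median of 1.57%. Rps25 had its highest share in the same DES myeloid cells (1.06%) and its lowest in DES epithelial cells (0.599%). Rpl7 went the other way, with 1.69% in CO and 1.57% in DES epithelial cells and 0.887% in Lyz2-rich myeloid cells. Rpl30 stood at 2.02% in the Lyz2-rich cells and at 1.18% in CO mesothelial cells.

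Within the CO epithelium the developing glands had the largest member shares. In the clusters that the study assigned to developing glandular epithelium the share was 27.8% in cluster 3, 26.4% in cluster 8 and 25.7% in cluster 14, the cycling gland cluster. These hold 204, 123 and 28 cells. Cluster 13, assigned to mature glands, was at 21.4%, and cluster 12, the proposed stem cells, at 20.8%. The 10 luminal clusters ran from 17.6% in cluster 7 to 22.0% in cluster 0. As a whole, the 355 cells of clusters 3, 8 and 14 were 6.49 points (counting interval 6.45 to 6.52) above the 2095 luminal cells, at 27.2% and 20.7%.
Since clustering used these very counts, the values are descriptions without a test. Of 77 members, 72 had a higher CPM in the developing gland clusters, with a median ratio of 1.31, whereas the median over 3152 genes was 0.880 and 38.7% of genes were above 1. Rpl12, a protein near the base of the stalk, had the largest ratio at 1.97, with 4053 CPM in developing glands and 2061 CPM in luminal cells, and Rps27l the smallest at 0.775, with 516 and 667 CPM. Rplp1 was at 6300 CPM in developing glands, at 6182 CPM in mature gland cluster 13 and at 3878 CPM in luminal cells, so that its level was also high in the mature gland cluster, whose overall member share was near that of luminal cells.

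Luminal clusters 6 and 7, with the lowest shares, had the largest mitochondrial shares, at 18.2% and 13.1% of UMIs against 7.47% to 11.6% in the other clusters. Over the 15 CO clusters the member share and the mitochondrial share were related with Pearson's r of -0.662 and Spearman's rho of -0.786, and over the 16 DES clusters with -0.580 and -0.432, where both are parts of the same total. The median depth of the clusters was less closely related to the member share (r of -0.154 in CO and -0.154 in DES).

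DES epithelial clusters ran from 20.7% in cluster 15 to 27.6% in clusters 7 and 8 and 28.0% in cluster 14. Cluster 5, the proposed cancer cells, was at 22.4%, and cluster 6, the cycling cluster with a median of 65030.5 UMIs, at 23.4%, both below the 24.6% of DES epithelial cells as a whole. Cluster 15 was level with the CO luminal share of 20.7%.
Basal cells, which the study described in DES uteri and which form integrated clusters 8 and 11, were at 27.8% and 28.1%. Together the 608 basal cells were 3.47 points (3.45 to 3.50) above the 4608 cells of the DES clusters, 5 cells being in both sets, and the mitochondrial share was 7.38% in basal cells and 12.2% in the others. Of 77 members, 66 had a higher CPM in basal cells, with a median ratio of 1.143 against 0.947 over all genes. Rpl13a had the largest ratio at 1.90 (393 and 206 CPM) and Rps27l the smallest at 0.788 (430 and 546 CPM). Rps27l was thus the member with the smallest ratio in both the CO gland and the DES basal comparison.

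**Figure D2:**
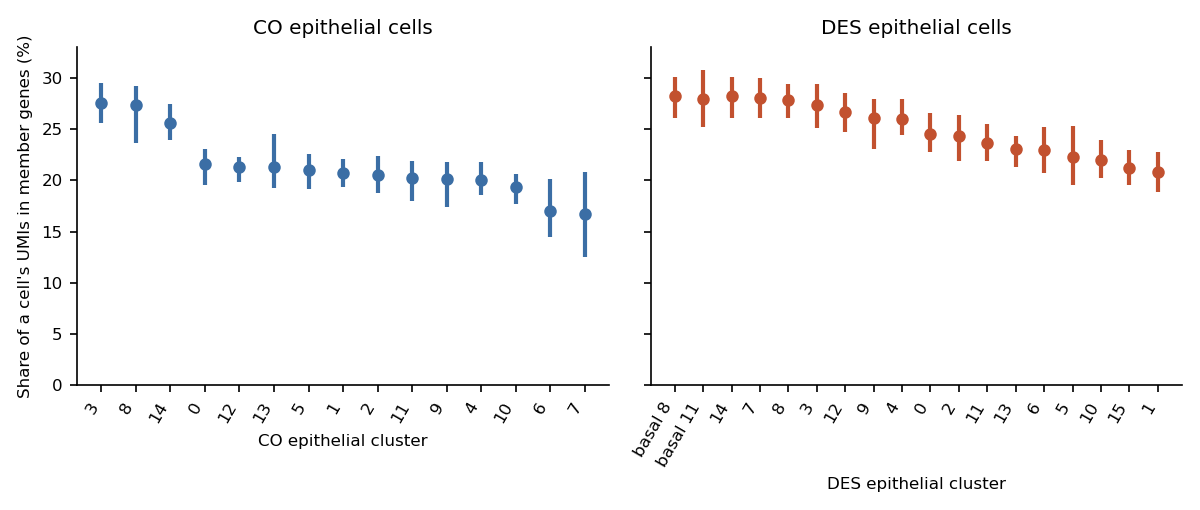
Share of a cell's UMIs in ribosomal protein genes (y axis, percent) in the 15 CO epithelial clusters (left) and in the basal and 16 other DES epithelial clusters (right), ordered by median except that the basal clusters stand first; circles are medians over cells and bars run from the first to the third quartile. The medians of CO clusters 3, 8 and 14 were 27.6%, 27.3% and 25.6%, above the 21.5% of the next cluster, and cluster 14 holds only 28 cells.

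In the tissue sections the member share went the other way. Visium spots hold several cells, so fewer cells of a type and less RNA per cell cannot be told apart. For CO A, CO B, DES A and DES B, the share was 20.8%, 20.3%, 17.2% and 18.2%, at 12506177, 11032957, 9117099 and 9880021 UMIs. Both DES sections were below both CO sections, with means of 20.5% ± 0.331 (SD, n = 2) and 17.7% ± 0.664 (SD, n = 2), a difference of -2.86 points ± 0.525 (SE). The exact permutation test of 2 against 2 sections gave p = 0.333 (two-sided), the smallest it can give, so no share difference between sections could pass 0.05. Mitochondrial genes took 0.798% to 1.07% of the UMIs of a section.

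The difference had opposite signs in different regions of the tissue, a contrast that was not tested. In stromal spots, the clusters that the study named stroma, the CO sections were at 22.6% (A) and 23.4% (B) and the DES sections at 17.2% (A) and 19.7% (B). In epithelium-rich spots, the 15% of each section with the highest scores for Epcam, Krt8, Krt18, Krt19 and Cdh1, it was 21.1%, 20.8%, 15.9% and 15.8% in the same order, a difference of -5.07 points ± 0.204 (SE). In muscle-rich spots, the 15% with the highest scores for smooth muscle genes, it was 18.7%, 17.4%, 19.2% and 20.4%, a difference of 1.74 points ± 0.851. Each of these gave p = 0.333 in the same exact permutation test. With these spots, muscle had the lowest share of the 3 regions in both CO sections and the highest in both DES sections. In the 25% of spots with the highest muscle scores the shares were 18.8%, 17.7%, 18.75% and 19.8%, so that DES A was below CO A, the groups overlapped, and the difference was 1.04 points (exact permutation p = 0.667). The muscle-rich difference was 1.12 points without CO B and 1.15 points without DES B. Of the 132 stromal spots of DES B, 49 were also muscle-rich, and without stromal spots the muscle-rich difference was 1.88 points.

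**Figure D3:**
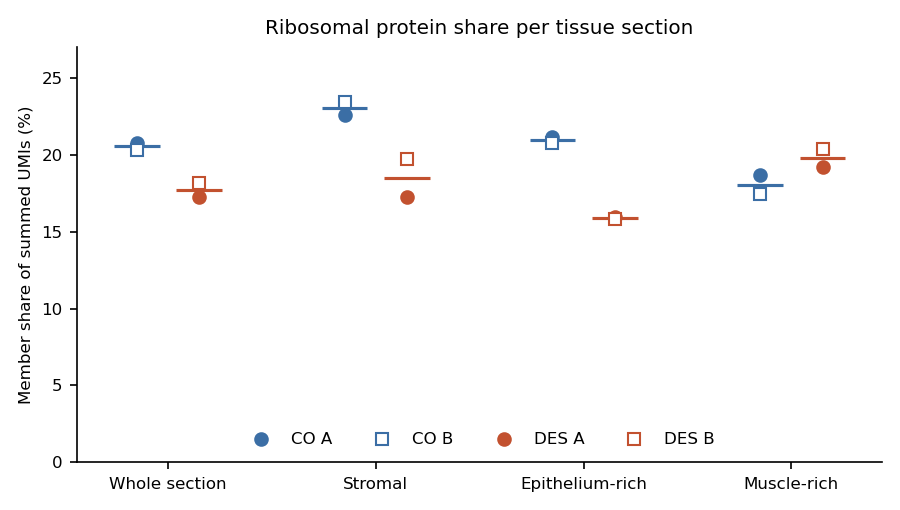
Member share of the summed UMIs (y axis, percent) in whole sections and in stromal, epithelium-rich and muscle-rich spots (x axis); each point is 1 section, from 1 mouse, and lines are group means. In epithelium-rich spots the CO sections were at 21.1% and 20.8% and the DES sections at 15.9% and 15.8%, while in muscle-rich spots both DES sections were above both CO sections, which was not so in the top 25% of spots.

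Markers of other cells differed between the groups in each of these regions. In whole sections the muscle markers summed to 13875 and 15033 CPM in CO and 3386 and 3775 CPM in DES, the basal markers to 3.36 and 159.7 CPM and 9526 and 5644 CPM, and the plasma cell markers to 225 and 474 CPM and 3250 and 6098 CPM. In stromal spots the basal markers summed to 0 and 89.97 CPM in CO and 7058 and 1998 CPM in DES, the plasma cell markers to 14.3 and 2002 CPM and 7866 and 38368 CPM, and the muscle markers to 974 and 806 CPM and 2933 and 8984 CPM. Plasma cell and basal markers were thus higher in both DES sections in both. In epithelium-rich spots the basal markers Krt14, Krt5 and Trp63 summed to 4.24 CPM in CO A and 184 CPM in CO B, and to 9431 and 6575 CPM in DES A and B. In the same spots the 4 myeloid markers summed to 112 and 189 CPM in CO and 1495 and 574 CPM in DES, and the 3 plasma cell markers to 12.7 and 120 CPM in CO and 1218 and 569 CPM in DES. The 5 epithelial markers themselves summed to 5128, 3611, 4621 and 5044 CPM, with overlapping groups. In muscle-rich spots the 6 muscle markers summed to 51397 and 54135 CPM in CO and 28764 and 23376 CPM in DES, and the plasma cell markers to 48.9 and 49.4 CPM in CO and 8011 and 16403 CPM in DES. The basal markers there summed to 1.13 and 8.62 CPM in CO and 1720 and 1765 CPM in DES, and the epithelial markers to 233 and 168 CPM and 502 and 834 CPM. Their part in the member share was not tested.

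Each member was then compared between 2 CO and 2 DES sections with the quasi-likelihood test of edgeR, fitted on all genes with TMM scaling and Benjamini-Hochberg adjustment. At an adjusted p below 0.05, 17 of the 77 members tested in epithelium-rich spots were lower in DES and 0 were higher, where 2.88% of 11525 genes were lower and 4.6% higher. In whole sections, stromal spots and muscle-rich spots 0 members passed in either direction, where 2.67%, 0.796% and 1.61% of genes were higher and 2.63%, 0.673% and 0.818% lower. Before adjustment, 27 of 77 members had p below 0.05 in either direction in whole sections, where 24.4% of all genes did, 13 in stromal spots (13.4% of genes), 51 in epithelium-rich spots (26.3%) and 2 in muscle-rich spots (15.6%). DESeq2 called 18 members lower in whole sections, where it called 6.87% of genes lower, 38 in epithelium-rich spots (4.62% of genes), 0 in stromal spots (0.998%) and 0 in muscle-rich spots (1.09%). In epithelium-rich spots 0 members passed without DES A or without DES B, where 0 of 12186 and 0 of 12286 genes passed in either direction. Without CO A or CO B 46 and 58 members passed, all lower, where 10.6% and 10.8% of all genes were lower. The median log2 fold change over members stayed between -0.77 and -0.67 with any section left out, which leaves 1 sample in a group.

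The 5 largest falls in epithelium-rich spots were those of Rpl22, Rps7, Rpl21, Rpl37 and Rpl4. Rpl22, a large subunit protein that is dispensable for translation in many cells, was at 3009 CPM (CO A), 3535 CPM (CO B), 1597 CPM (DES A) and 1638 CPM (DES B). It fell by 1.33 on the log2 scale (SE 0.19, adjusted p = 0.023), or 2.51-fold. Rps7, a small subunit protein that can also bind the p53 regulator Mdm2, was at 4825, 5115, 2612 and 2415 CPM in the same order (log2 fold change -1.30, SE 0.18, adjusted p = 0.0221). Rpl21 was at 3938, 4404, 2144 and 2145 CPM (-1.27, SE 0.19, adjusted p = 0.0232). Rpl37 was at 2858, 3888, 1886 and 1592 CPM (-1.27, SE 0.23, adjusted p = 0.0335), and Rpl4 at 3226, 3517, 1729 and 1796 CPM (-1.25, SE 0.19, adjusted p = 0.0239). In each of these 5 the DES sections lay below the CO sections without overlap. The other members that passed included Rpl23, Rpl7, Rpl5, Rps4x, Rpl11, Rps27a, Rpl24, Rpl32, Rps24, Rpl6 and Rpl28, with falls between 2.37-fold and 1.85-fold, and in all 5 small and 12 large subunit genes passed. Rpl5 and Rpl11, which with ribosomal RNA form a particle that also binds Mdm2, were among them.

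**Figure D4:**
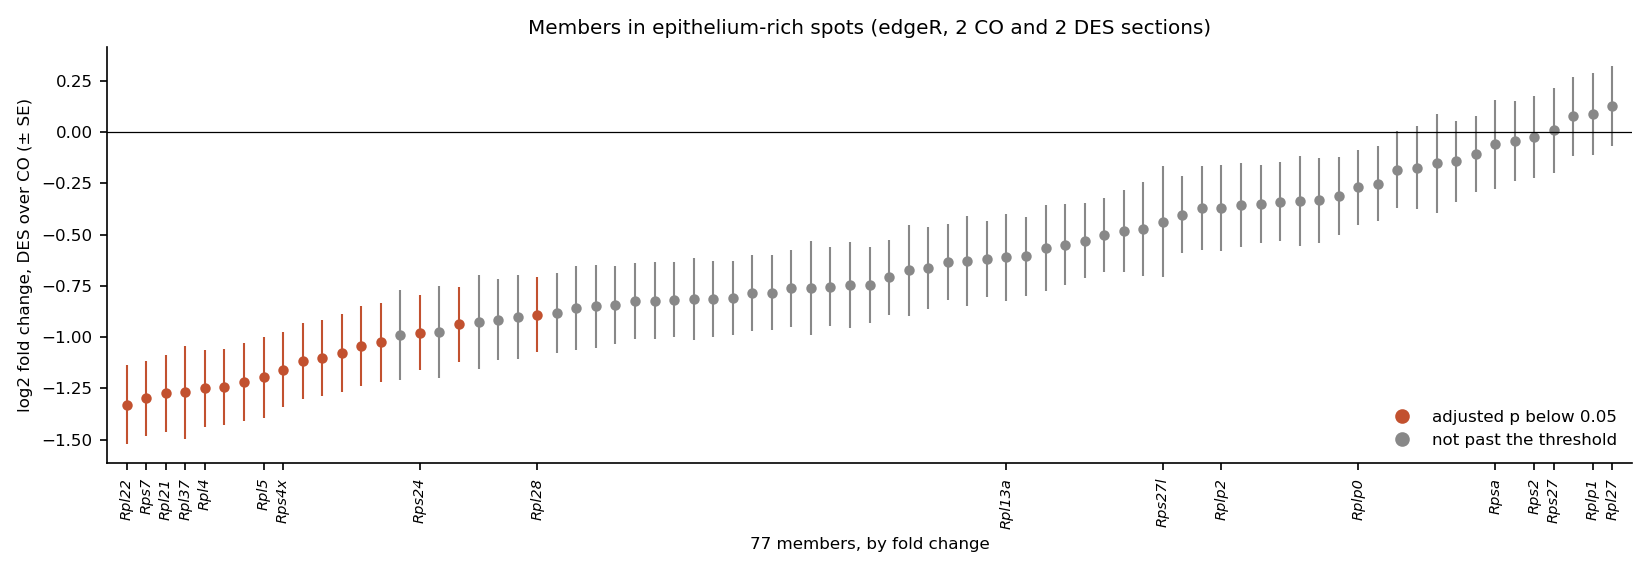
Log2 fold change of DES over CO (y axis, points with bars of 1 SE) of the 77 members tested in epithelium-rich spots (x axis, ordered by fold change, with some members labelled; edgeR, 2 CO and 2 DES sections); red points passed an adjusted p of 0.05. The range ran from -1.33 for Rpl22 to 0.13 for Rpl27, with 73 of 77 members below 0.

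The fold changes differed from member to member, a spread that was not tested. In epithelium-rich spots 73 of 77 had a log2 fold change below 0, with a median of -0.75 against -0.02 over all genes, and in CPM 52 members had both DES sections below both CO sections and 12 had both above, where 14.2% and 48.2% of all genes did. Rplp1 was at 3705 and 3182 CPM in the CO sections and 4552 and 4566 CPM in the DES sections (A, then B), and its log2 fold change was 0.09 (SE 0.20, adjusted p = 0.821). Rpsa was at 3027, 2387, 3333 and 3149 CPM (-0.06, SE 0.22, adjusted p = 0.889), Rps2 at 1624, 1520, 2118 and 1739 CPM (-0.02, SE 0.20, adjusted p = 0.956) and Rps27 at 1264, 1461, 1554 and 1849 CPM (0.01, SE 0.21, adjusted p = 0.984). For these 4 genes CPM were higher in both DES sections, while the fold changes after TMM scaling were near 0 and did not pass the test. Rplp0 was at 2987, 2985, 3225 and 2948 CPM and Rplp2 at 1787, 1460, 1544 and 1589 CPM, so that their groups overlapped. Relative to the total alone, without TMM factors, the median over all genes was 0.30 and that over members -0.43. With this scaling 9 members were called lower and 0 higher, where 1.93% and 8.54% of all genes were.

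In whole sections 71 of 77 members were below 0, with a median log2 fold change of -0.41 against -0.01 over all genes, and 44 members had both DES sections below both CO sections in CPM and 12 above, where 17.9% and 43.8% of all genes did. Rps7 had the lowest value, with 4078 and 3888 CPM in CO and 2515 and 2622 CPM in DES (-0.84, SE 0.19, adjusted p = 0.0794). In stromal spots 67 members were below 0 with a median of -0.44, against 0.002 over all genes. In CPM 52 had both DES sections below both CO sections and 5 above, where 18.1% and 24.7% of genes did. Rpl21 was lowest there at 3844, 3296, 1752 and 1767 CPM (-1.06, SE 0.32, adjusted p = 0.167), and Rps14, a small subunit protein, highest at 2684, 3172, 3692 and 5026 CPM (0.55, SE 0.35, adjusted p = 0.585). In muscle-rich spots 53 members were below 0 with a median of -0.11, against -0.004 over all genes. In CPM 29 had both DES sections above both CO sections and 5 below, where 36.9% and 12.6% of genes did. Rpl36 stood at 2234, 2845, 3886 and 4324 CPM there (0.47, SE 0.22, adjusted p = 0.352) and Rpl15 at 2785, 2853, 2156 and 2224 CPM (-0.59, SE 0.19, adjusted p = 0.175). The sign of the muscle-rich median depended on the scaling, being 0.11 without TMM factors, where the median over all genes was 0.22. With any section left out, the median over members was -0.52 to -0.31 in whole sections and -0.61 to -0.29 in stromal spots. In muscle-rich spots it was -0.21 to -0.01. The lowest and highest members named here were picked after their values were seen. Rps7 was among the 5 lowest members in all 4 regions, and Rps14 and Rpl36 were at 0 or above in stromal and muscle-rich spots.

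Large subunit genes had lower median log2 fold changes than small subunit genes in each region, a difference that was not tested. These were -0.77 and -0.63 in epithelium-rich spots, -0.46 and -0.31 in whole sections, -0.49 and -0.26 in stromal spots, and -0.14 and -0.04 in muscle-rich spots. Members with the pyrimidine run at the transcript start had a median of -0.44 in epithelium-rich spots and the other 56 members one of -0.76. In single epithelial cells, where the log2 ratio of DES to CO was mostly positive, the medians were 0.07 for the 21 members with the run and 0.19 for the others. These medians were not tested. Members with a run also held the lowest value in spots, Rpl22, and the highest in cells, Rps27. Rpl27, the highest in spots, and Rpl13a, the lowest in cells, had no run. Fold changes were weakly related to the length of the transcript used for each member (Spearman's rho of -0.155 in epithelium-rich spots and -0.287 in single epithelial cells, n = 77 members, which share the libraries).

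The same member often had opposite signs in cells and in spots. Of 77 members, 59 were higher in DES than in CO single epithelial cells and lower in DES epithelium-rich spots, 14 were lower in both, 4 were higher in both, and 0 were lower in cells and higher in spots. Here cells were compared in CPM and spots after TMM scaling, and the split depended on this. With mean CPM in spots as well, 52 were higher in cells and lower in spots, 10 lower in both, 11 higher in both, and 4 lower in cells and higher in spots. Rps4x was at 3735 and 5315 CPM in CO and DES cells, while in spots it was at 4683 and 4781 CPM in CO and 2698 and 2581 CPM in DES (log2 fold change -1.16, SE 0.18, adjusted p = 0.0266). Rps24, the second largest ratio in cells, likewise was at 6325, 6368, 4113 and 3908 CPM in spots (-0.98, SE 0.18, adjusted p = 0.0367). Across members the fold changes in spots and in cells were weakly and inversely related (r of -0.190, rho of -0.236). Cells and sections were captured by different methods, and epithelium-rich spots also hold other cells.

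**Figure D5:**
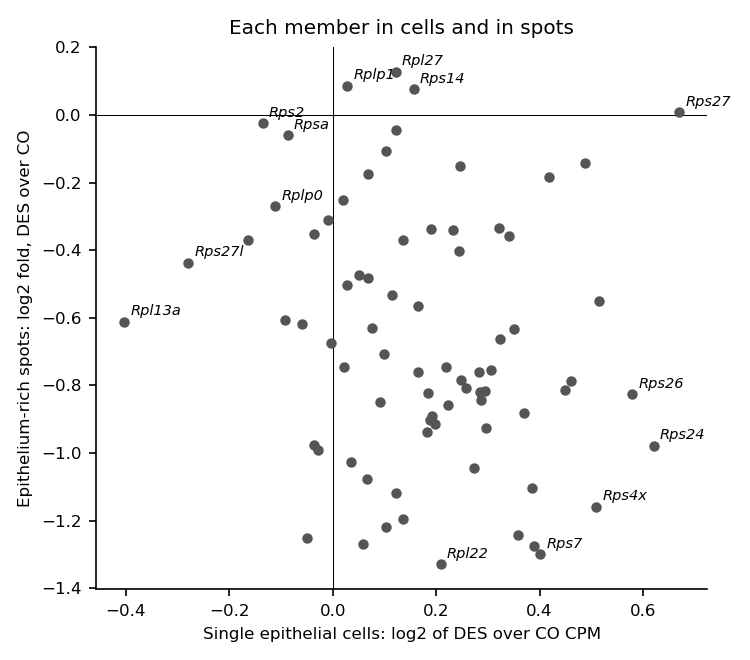
Each of 77 members by its log2 ratio of DES over CO CPM in single epithelial cells (x axis, 1 library per condition) and its log2 fold change in epithelium-rich spots (y axis, edgeR, 2 against 2 sections). Most points, 59 of 77, lie to the right of 0 and below 0, against 52 of 77 where spots are taken in CPM without TMM factors.

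Other genes of the translation machinery were read from lists chosen with earlier results of these data known. Of 22 translation factors tested in epithelium-rich spots, 2 were lower in DES and 0 higher, beside a median log2 fold change of -0.52. Over all genes there, 2.88% were lower and 4.6% higher, and the counts for the ribosome biogenesis and mitochondrial lists are near that share. Tpt1, a translation-associated protein whose messenger RNA carries a TOP motif, was at 8023 and 7310 CPM in CO and 3771 and 4157 CPM in DES (-1.27, SE 0.20, adjusted p = 0.0264), and Eef1b2, an elongation factor subunit, at 1565, 1424, 964 and 958 CPM (-0.95, SE 0.19, adjusted p = 0.0448). Of 30 ribosome biogenesis genes 1 was lower, Npm1, a nucleolar chaperone, at 503, 525, 338 and 299 CPM (-1.01, SE 0.19, adjusted p = 0.0366), while the median of the list was 0.09. The 8 other cytosolic ribosome genes, such as Fau and Rps3a1, had a median of -0.50 and 0 of them passed. Of 76 mitochondrial ribosomal protein genes 3 were lower and 0 higher, with a median of -0.15, so that the mitochondrial list lay nearer to 0 than the cytosolic members. Mrps6 had the largest fall of these, from 425 and 433 CPM in CO to 75.2 and 65.4 CPM in DES (-2.93, SE 0.20, adjusted p = 0.00795), and it also passed in whole sections and in stromal spots.

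Among 12 regulators of ribosome production tested in epithelium-rich spots, 1 passed, where 2.88% of all genes were lower. Mycn, a transcription factor of the Myc family, which is known to drive ribosomal protein genes, was at 102 and 109 CPM in CO and 24.3 and 7.17 CPM in DES in epithelium-rich spots (-3.06, SE 0.50, adjusted p = 0.0282). It was also lower in whole sections, at 60.3, 56.3, 14.4 and 9.11 CPM (-2.53, SE 0.25, adjusted p = 0.0212), and in stromal spots (-2.93, SE 0.55, adjusted p = 0.0446), where 2.63% and 0.673% of all genes were lower. In muscle-rich spots 0 genes of these lists passed, by edgeR, in either direction.

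In single epithelial cells 0 of the 22 translation factors were at least 1.5-fold higher and 2 at least 1.5-fold lower in DES (Eif4g1 and Eif4g2), with a median ratio of 0.886. Over all genes 12.1% were that much higher and 20.1% lower, and the share of mitochondrial ribosomal protein genes that were higher was near this. Of 12 biogenesis genes at 50 CPM or more, 2 were higher (Nop58, at 95.8 and 166 CPM, and Brix1, at 48.6 and 74.1 CPM) and 0 lower, and the median ratio was 1.29. Of 47 mitochondrial ribosomal protein genes 7 were higher and 1 lower, the latter being Mrps6 at 183 CPM in CO and 87.9 CPM in DES, which was thus lower in DES in both data types. Tpt1, Eef1b2 and Npm1, which were lower in DES epithelium-rich spots, were higher in DES single epithelial cells. Their levels in CO and DES cells were 8226 and 11478 CPM, 1264 and 1555 CPM, and 912 and 1107 CPM. Rpl22l1, the paralog of Rpl22, was at 1328 and 1999 CPM.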

How the data were processed

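Single-cell and spatial tables hold the UMI counts per gene that the authors deposited, with their metadata giving each cell's type and cluster and each spot's cluster. The submitters' processing notes name Cell Ranger 3.0.1, Space Ranger 1.2.2 and mm10. The deposited counts are raw whole numbers. Depth was 9117099 to 12506177 UMIs per section. The members, lists and tests were chosen with earlier results of these data known.

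UMIs were summed per cell type, cluster, section and region with Python 3.11.15. Sections were compared with edgeR 4.0.16 (quasi-likelihood test, TMM factors, filterByExpr, Benjamini-Hochberg adjustment over all genes tested, threshold 0.05), which was tested on simulated data, and with DESeq2 1.42.0 as an alternative. The section labels give no number of mice, and that each section is from 1 mouse follows from the study's description. Shares were compared by an exact permutation test. The single-cell libraries gave no test. Other alternatives were the scaling, the low-count filter, each section left out, the choice of spots, the denominator of the share, averaging over cells or spots, a wider member list, and cells with at least 1000 UMIs and under 20% mitochondrial UMIs. Muscle-rich spots without stromal-cluster spots, and member directions in spots by mean CPM, were added after seeing the data.

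Named genes were, per region, the members past the threshold with the 5 largest rises and falls, the 5 largest and smallest epithelial DES over CO ratios of the share of member UMIs, the 5 with the largest ratio of highest to median share over cell types, the 5 most abundant, paralog pairs, and the stalk and laminin-receptor genes. Spots were scored by the mean natural log of counts per 10000 plus 1 over each marker list. Doublets were not called here, and cell types are those of the authors. A few genes are not reported here.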

Additional observations from a re-analysis of the deposited data

Results flagged for a closer look

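The member share differed between CO and DES in opposite directions in single epithelial cells, where DES was 3.26 points higher, and in epithelium-rich spots, where it was -5.07 points relative to CO. The difference between these 2 data types was not tested, because the cells give 1 library per condition.

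Within sections, the share in epithelium-rich spots minus that in muscle-rich spots was 2.47 points in CO A and 3.32 points in CO B, and -3.26 points in DES A and -4.56 points in DES B. Both CO sections were thus on one side of 0 and both DES sections on the other. In muscle-rich spots the DES minus CO difference was 1.74 points, opposite in sign to that in epithelium-rich spots. These differences between regions were not tested. In the top 25% of spots by muscle score the muscle-rich difference was 1.04 points and the groups overlapped.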

How the results depend on the processing

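The number of members lower in DES in epithelium-rich spots was 38 with DESeq2 (4.62% of all genes lower), 33 with no filter beyond 1 count (4.02%), 11 in the top 25% of spots (2.48%) and 9 with total UMIs only (1.93%), and 0 to 58 when a section was left out (0 to 10.8%). In whole sections it was 18 with DESeq2 (6.87%) and 0 to 4 with a section left out (0 to 10.4%, with 4 members where 8.19% of genes were lower), and in stromal spots 2 with no filter (2.14%). In muscle-rich spots it was 0 to 11 lower and 0 to 3 higher with a section left out, the highest of each without CO B, where 7.23% of genes were lower and 7.30% higher. Leaving 1 section out leaves a lone sample in its group, which is assumed to vary like the other group. With total UMIs only, the median log2 fold change over members in muscle-rich spots turned to 0.11, and the median over all genes shifted to 0.20 in whole sections, 0.07 in stromal spots, 0.30 in epithelium-rich spots and 0.22 in muscle-rich spots. Rpl37 then had an adjusted p of 0.0581 (edgeR). Each of the 5 largest falls lost its call without DES A or without DES B, with log2 fold changes over all sections left out in turn of -1.42 to -1.23 for Rpl22, -1.32 to -1.27 for Rps7, -1.33 to -1.21 for Rpl21, -1.45 to -1.05 for Rpl37 and -1.30 to -1.19 for Rpl4.

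The share difference in whole sections was -4.01 points without the 20 most abundant other genes and -1.99 points as a mean over spots (-3.33 to -2.39 with a section left out). In epithelium-rich spots these were -6.93 and -4.65 points, with -5.43 for the wider list, -4.77 for the top 25% of spots and -5.26 to -4.87 with a section left out. Without mitochondrial genes and Malat1, the single-cell differences were 4.15 points in epithelial cells, 0.868 in mesothelial cells, 6.57 for developing gland over luminal clusters, 2.60 for basal over other clusters and 5.50 for whole libraries. Without the 20 most abundant other genes they were 4.09, 0.867, 6.11, 2.58 and 4.003, with 3.39 in lymphocytes and -3.08 in myeloid cells. As means over cells they were 3.72, 0.838, 6.73, 3.36 and 4.64, with 1.82 in lymphocytes and -2.51 in myeloid cells. The wider list gave 3.49 in epithelial cells, 3.33 in lymphocytes, 6.75, 3.44 and 4.90 for the last 3 pairs, and filtered cells gave 3.16 in epithelial cells, 0.686 in mesothelial cells, 6.34, 3.398 and 4.34. In the top 25% of spots the muscle-rich share difference was 1.04 points. No share difference changed sign, and the cause of these shifts was not tested.

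No paired analysis was possible because the letters A and B name sections within a group and do not pair CO with DES mice. With 2 sections per group, and with 1 library per condition in single cells, the spread between mice is poorly known, and the depth limits only the genes with a few UMIs, such as Rpl3l.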

Other observations

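Barcodes to which the authors gave no cell type had smaller member shares. They numbered 20134 in the CO library, with a share of 14.6%, a median over cells of 7.41% and a median of 4137.5 UMIs, and 6611 in the DES library, with 16.3%, 11.4% and 2178 UMIs. Under 10% of UMIs came from members in 12602 and 2976 of them, against 200 of 12253 and 127 of 9701 annotated cells. A further 350 cells of the metadata had no column of counts.

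Cytosolic ribosome genes outside the symbol rule were at similar levels in epithelial cells. Rps3a1 was at 4384 CPM in CO and 5381 CPM in DES, Fau at 3074 and 4010 CPM, and Rpl36al at 307 and 318 CPM.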
